A study of Mus musculus with 2 samples.

Results

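The nuclear genes for the subunits of the mitochondrial respiratory chain and the ATP synthase were described in 2 libraries of newborn mouse forebrain RNA. Members were the protein-coding genes, by Ensembl identifier, whose symbols begin with Nduf followed by a, b, c, s or v and a digit, with Uqcr, with Cox and a digit from 4 to 8, or with Atp5, together with Cyc1 and Cycs. The rule gave 82 genes of the 21461 nuclear protein-coding genes in both tables: 37 for complex I, 9 for complex III, 18 for complex IV, 17 for complex V (the ATP synthase) and 1, Cycs, for cytochrome c. It used names alone and no measured value. The rule takes in Atp5s, a protein that is no structural subunit of the ATP synthase, and Ndufa4, whose product is known to sit with complex IV although its symbol places it with complex I.

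RNA came from whole forebrains of B6NCrl mice on postnatal day 0, from pup 1 (replicate 1) and pup 3 (replicate 2), and 13 pg, the amount in 1 cell-equivalent, went into each Smart-seq library. Smart-seq copies whole messenger RNAs from very small inputs. The labels describe separate pups but give both the same donor identifier, so the spread between the libraries may be partly technical. The labels give no treatment and no altered allele, and the libraries form 1 group, so there is no contrast, and with 1 library per pup no difference between pups was tested. Forebrain tissue holds many cell types, and fewer cells of a type cannot be told apart from less RNA per cell. Estimated reads summed to 41082811 in pup 1 and 29881397 in pup 3, and spike-in RNA took 4.46% and 7.30% of TPM. TPM is a level scaled by transcript length and to the same total in each library. The forebrain neuron markers Neurod6, Tubb3, Stmn2, Gad1, Bcl11b and Gap43 were found in both pups.

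The respiratory chain moves electrons from NADH and succinate to oxygen through complexes I to IV, with ubiquinone and cytochrome c as carriers between them, and complexes I, III and IV pump protons across the inner mitochondrial membrane. Complex V lets the protons flow back and makes ATP. Neurons depend on this route to drive the ion pumps that hold the membrane potential. Complexes I, III, IV and V each combine proteins made from mitochondrial DNA with proteins made from nuclear genes, so that both genomes have to be expressed. Several complex IV subunits exist as a general form and a second form known from heart and skeletal muscle, lung or testis. The factors NRF1, GABP (an ETS-family factor) and YY1 are known regulators of many of these nuclear genes.

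Promoter sequence, 250 bases before to 50 bases after the annotated start, was matched in RefSeq (build GRCm38.p6) for 66 of the 82 genes. Atp5a1, Atp5mpl, Cox4i1, Cox4i2, Cox6a2, Cox6c, Cox8c, Cyc1, Ndufa2, Ndufa4l2, Ndufb9, Ndufs1, Uqcrb, Uqcrc2 and Uqcrq were among those not matched. Shown first are the promoters of general and muscle-type complex IV isoforms, since these pairs lay at opposite ends of the members' levels: Cox8a at chr19:7217567-7217866 (minus strand), Cox8b at chr7:140900397-140900696 (minus strand), Cox7a2 at chr9:79759804-79760103 (minus strand) and Cox7a1 at chr7:30183921-30184220 (plus strand). Capitals mark a match to a searched motif on either strand: the ETS motif CCGGAAGT or the TATA box TATAAA.

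Cox8a: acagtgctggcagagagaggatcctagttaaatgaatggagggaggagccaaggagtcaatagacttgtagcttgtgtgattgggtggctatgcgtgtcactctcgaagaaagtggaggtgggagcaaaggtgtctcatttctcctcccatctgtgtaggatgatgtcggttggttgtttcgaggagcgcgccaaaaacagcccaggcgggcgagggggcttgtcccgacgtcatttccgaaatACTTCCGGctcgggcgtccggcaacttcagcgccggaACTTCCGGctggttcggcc
Cox8b: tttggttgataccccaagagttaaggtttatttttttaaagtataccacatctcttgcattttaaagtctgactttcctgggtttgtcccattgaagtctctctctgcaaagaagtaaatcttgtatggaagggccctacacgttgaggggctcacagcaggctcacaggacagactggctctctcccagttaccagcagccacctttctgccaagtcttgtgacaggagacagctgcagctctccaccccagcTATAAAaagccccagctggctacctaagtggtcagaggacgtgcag
Cox7a2: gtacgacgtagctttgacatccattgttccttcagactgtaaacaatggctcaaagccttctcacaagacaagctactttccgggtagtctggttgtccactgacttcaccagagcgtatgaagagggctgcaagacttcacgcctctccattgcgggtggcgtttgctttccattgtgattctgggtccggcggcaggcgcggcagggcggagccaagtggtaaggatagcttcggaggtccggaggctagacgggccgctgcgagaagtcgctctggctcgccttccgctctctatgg
Cox7a1: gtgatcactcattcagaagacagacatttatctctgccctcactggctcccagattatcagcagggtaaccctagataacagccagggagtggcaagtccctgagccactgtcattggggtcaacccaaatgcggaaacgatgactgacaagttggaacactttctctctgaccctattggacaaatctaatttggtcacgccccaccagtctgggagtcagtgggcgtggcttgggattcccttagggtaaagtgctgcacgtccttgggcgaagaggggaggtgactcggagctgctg

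The Cox8a window held the ETS motif at 2 places and 19 CpG dinucleotides, while the Cox8b window held the TATA letters, beginning at base 5 of the transcript, and 2 CpG. None of the 4 searched motifs was in the windows of Cox7a2, with 20 CpG, or Cox7a1, with 7 CpG. The other 3 windows are shown for genes described below: Uqcr11 at chr10:80406772-80407071 (minus strand) and Uqcrc1 at chr9:108936398-108936697 (plus strand), complex III genes that differed between the pups in opposite directions, and Ndufb8 at chr19:44555393-44555692 (minus strand), high in both pups. Capitals mark the ETS motif in Uqcr11, the NRF1 half-site TGCGCA in Uqcrc1 and Ndufb8, and the YY1 motif AAGATGGC in Ndufb8.

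Uqcr11: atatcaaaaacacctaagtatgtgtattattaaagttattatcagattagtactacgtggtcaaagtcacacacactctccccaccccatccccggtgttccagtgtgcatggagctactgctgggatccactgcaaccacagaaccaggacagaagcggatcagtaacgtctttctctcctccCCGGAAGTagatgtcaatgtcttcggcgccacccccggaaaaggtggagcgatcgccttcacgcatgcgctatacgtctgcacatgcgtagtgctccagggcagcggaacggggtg
Uqcrc1: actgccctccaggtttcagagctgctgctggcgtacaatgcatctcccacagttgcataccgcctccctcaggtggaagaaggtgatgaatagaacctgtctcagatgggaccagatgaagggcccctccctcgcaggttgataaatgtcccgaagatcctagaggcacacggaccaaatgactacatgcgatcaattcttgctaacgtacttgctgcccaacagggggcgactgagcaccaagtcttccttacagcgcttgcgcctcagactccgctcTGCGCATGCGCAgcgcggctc
Ndufb8: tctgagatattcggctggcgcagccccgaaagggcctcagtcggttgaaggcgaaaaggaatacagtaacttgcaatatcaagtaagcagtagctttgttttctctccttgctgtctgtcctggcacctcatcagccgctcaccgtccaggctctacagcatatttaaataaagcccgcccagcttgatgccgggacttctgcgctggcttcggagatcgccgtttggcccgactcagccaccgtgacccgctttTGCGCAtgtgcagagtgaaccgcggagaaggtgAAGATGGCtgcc

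In Uqcrc1 the half-site occurs at 30 and again at 36 bases into the transcript, directly next to each other, and in Ndufb8 it begins at base 6 with the YY1 letters at base 39. Searched on both strands, the NRF1 half-site was in 16 of 66 member windows (24.2%), against 10.4% of the 16317 windows of nuclear protein-coding genes, 19.6% of those at a mean TPM of 200 or more and 8.06% of all 27025 windows. The YY1 letters were in 9 member windows (13.6%), those of Atp5f1, Atp5j2, Ndufa3, Ndufa9, Ndufb8, Ndufc1, Ndufs4, Ndufs6 and Ndufs7, against 3.31%, 5.61% and 2.88%. For the ETS motif the members' share was 7.58%, against 5.56%, 10.9% and 4.0%. The TATA letters were in 10.6% of member windows, against 12.6%, 10.03% and 14.2%. A match describes letters in the window and is neither a shown binding site nor a cause of a level.

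Nearly all of the general subunits were found, and at high levels. Of the 82 genes, 73 had a TPM of 1 or more in both pups, whereas 24.7% of all nuclear protein-coding genes did. By complex these were 36 of 37 for complex I, 9 of 9 for complex III, 11 of 18 for complex IV, 16 of 17 for complex V and Cycs. Pup 1 alone had 2, Ndufa4l2 and Cox6b2, against 17.4% of nuclear protein-coding genes, and pup 3 alone had 0, against 4.22%. A mean TPM of 200 or more was reached by 65 of the 82, against 3.43% of nuclear protein-coding genes. The median member stood at 355 TPM in pup 1 and at 464 TPM in pup 3. Together the members took 3.99% of the TPM of nuclear protein-coding genes in pup 1 and 6.28% in pup 3.

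**Figure D1:**
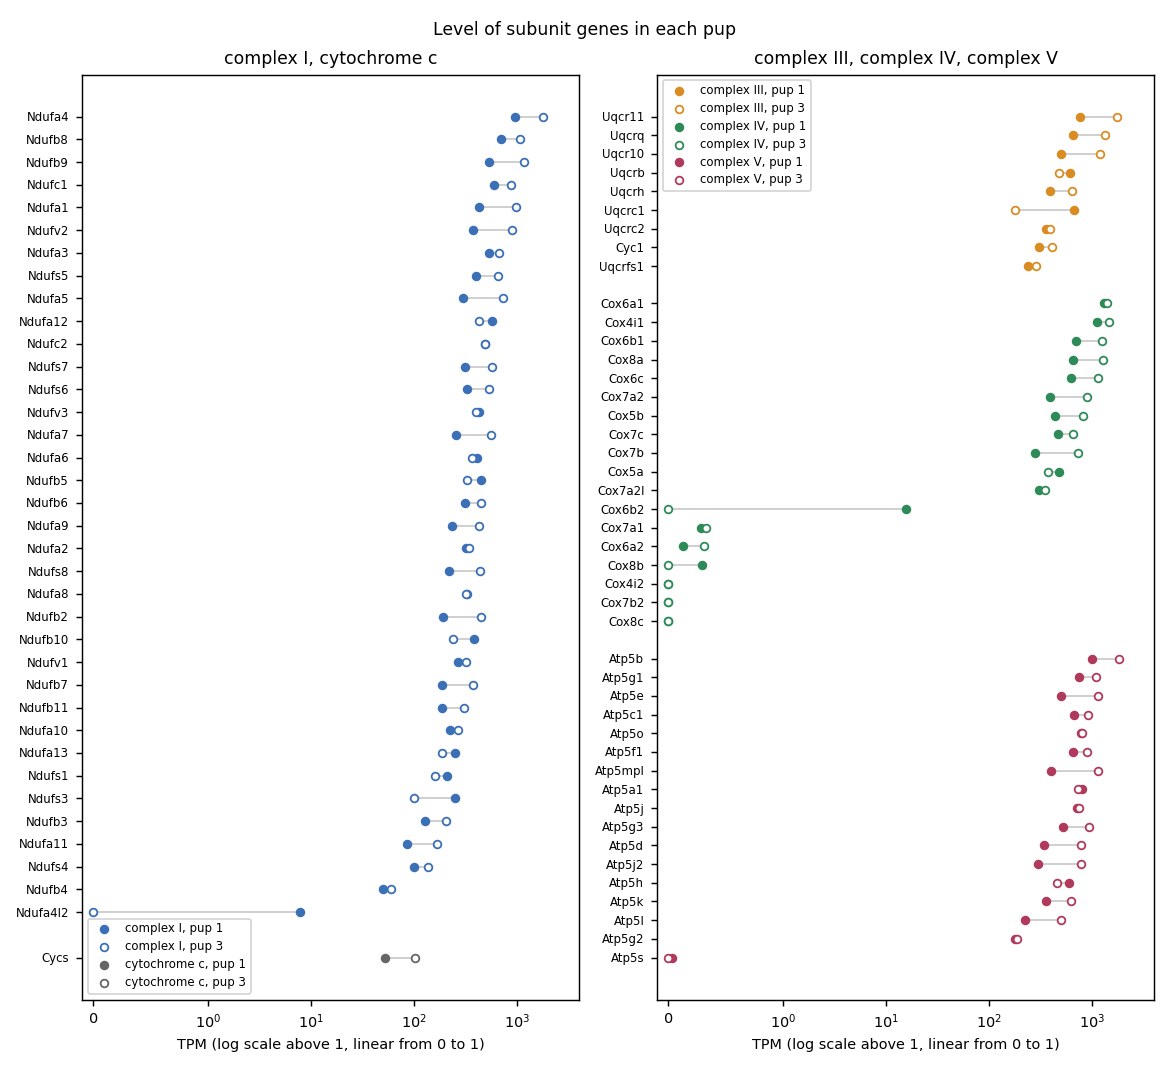
TPM of the genes described here in pup 1 (filled) and pup 3 (open), by complex and in order of mean TPM, on an axis that is logarithmic above 1 and linear below. All but 9 genes lie above 50 TPM in both pups, and the low ones are Ndufa4l2, Atp5s and 7 complex IV isoforms.

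Of the 73 genes found in both pups, 6 share many reads with near-identical copies, described below, and their levels are uncertain. Among the rest, mean TPM ran from 119 for Ndufs4, an accessory subunit of complex I, to 1404 for Atp5b. The range was 4.78-fold over the 9 genes of complex III and 4.16-fold over 11 genes of complex IV. The order of levels was partly shared by the pups, with a Spearman coefficient of 0.74 over the 73 genes. It was 0.44 over 2797 nuclear protein-coding genes at a mean TPM of 50 or more. The 2 sets were not matched in level: 65 of the 73 members but 736 of the 2797 genes were at 200 TPM or more. Within complexes I, III, IV and V the coefficient was 0.67, 0.47, 0.80 and 0.43. These coefficients are across genes of the same libraries and are descriptions.

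Complex I takes electrons from NADH and passes them to ubiquinone. Its 37 genes had a median of 314 TPM in pup 1 and of 399 TPM in pup 3. The highest was Ndufa4, at 953 TPM in pup 1 and at 1807 TPM in pup 3 (1379.7 ± 604, SD, n = 2). Ndufb8, a subunit of the membrane arm, stood at 703 and 1068 TPM (886 ± 258, n = 2), and Ndufb9, another membrane-arm subunit, at 536 and 1168 TPM (852 ± 447, n = 2). Next came the small membrane subunits Ndufc1, at 597 and 872 TPM (734 ± 195, n = 2), and Ndufa1, at 429 and 980 TPM (704 ± 390.1, n = 2). In each of these 5 the level was higher in pup 3.

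The nuclear core subunits of complex I, which carry the flavin and the iron-sulfur clusters or form the quinone site, did not move as a block between the pups. Pup 3 had the higher level for 4 of the 6 described here and pup 1 for 2. Of nuclear protein-coding genes at a mean TPM of 50 or more, 53.4% were higher in pup 3. For the 6, the log2 ratio (pup 3 over pup 1) had a median of 0.56. All log2 ratios of levels are of TPM + 1, which understates differences of low genes. Ndufs3, in the quinone-facing arm, was at 250.2 TPM in pup 1 and at 101 TPM in pup 3, 2.46-fold higher in pup 1. The deposited credibility bounds of its TPM, 238 to 253 in pup 1 and 94.8 to 105 in pup 3, do not overlap, but they cover the assignment of reads in a library and not the spread between animals.

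Ndufs3 and Kbtbd4 share 88 exon bases on opposite strands, and Kbtbd4 had 5691 reads in pup 1 and none in pup 3. Whether counting used strand is not given in the sources used here, so reads in the shared bases cannot be told apart. Ndufs1, the largest core subunit, was also higher in pup 1, at 212 and 161 TPM.

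The iron-sulfur subunit Ndufv2 stood at 378 and 896 TPM, Ndufs7 at 314 and 578 TPM, and Ndufs8 at 221 and 433 TPM, all 3 higher in pup 3. Ndufv1, which binds the flavin and meets NADH, differed little, at 270.1 TPM in pup 1 and at 321 TPM in pup 3. The 30 complex I members outside the core had a median log2 ratio of 0.53, with 22 higher in pup 3 and 8 in pup 1. At a mean TPM of 50 or more it was 22 of 29, against 53.4% of nuclear protein-coding genes. Among them Ndufa5, in the quinone-facing arm, had 301 and 733 TPM. Ndufb10 lay the other way, at 380.1 and 242 TPM, as did Ndufb5 (447 and 329 TPM), Ndufa12 (577 and 428 TPM) and Ndufa13 (252 and 189 TPM). Ndufb5 shares 616 exon bases with Mrpl47 on the opposite strand, which had 2099 and 277 reads.

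The gene with the lowest level in complex I was Ndufa4l2, a relative of Ndufa4 known from cells with low oxygen and from pericytes. It had 7.92 TPM (181 reads) in pup 1 and 0 reads in pup 3, where the upper credibility bound was 0.147 TPM. Of 9 markers of mural cells, the pericytes and smooth muscle of vessel walls, 2 were found in both pups and 3 in neither. Pup 1 alone had 3 and pup 3 alone had 1. Over nuclear protein-coding genes too more were found in pup 1 alone (17.4%) than in pup 3 alone (4.22%). Of them 24.7% were found in both pups, and 11508 of 21461 in neither. Pdgfrb was at 26.9 and 0 TPM, Notch3 at 0.010 and 21.5 TPM and Vtn at 91.1 and 173 TPM. This list was chosen after the values of Ndufa4l2 were seen, and its part in the result was not tested.

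Complex III hands electrons from ubiquinol to cytochrome c. All 9 genes were found in both pups, with a median of 494 TPM in pup 1 and 471 TPM in pup 3. By mean of the pups the 5 small subunits had the highest levels, although in pup 1 Uqcrc1 was second of the 9. Uqcr11 stood at 761 TPM in pup 1 and at 1733 TPM in pup 3 (1247 ± 688, SD, n = 2), Uqcrq at 655 and 1332 TPM (994 ± 479, n = 2) and Uqcr10 at 494 and 1199 TPM (847 ± 499, n = 2). These 3 were all over 2-fold higher in pup 3. The hinge protein gene Uqcrh, whose product helps cytochrome c dock, had 392 and 633 TPM, and Uqcrb had 607 and 471 TPM, the one small subunit that was higher in pup 1.

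The matrix-facing core proteins of complex III differed from each other. Uqcrc1 had 664 TPM (26628 reads) in pup 1 and 179 TPM (6140 reads) in pup 3, which is 3.69-fold higher in pup 1 and the largest difference in that direction among members at a mean TPM of 50 or more. Its partner Uqcrc2, present with it in equal number in the complex, stood at 358 and 385 TPM. The 2 transcripts that encode redox subunits differed little: cytochrome c1, Cyc1, had 307 and 402 TPM, and the Rieske iron-sulfur protein, Uqcrfs1, had 237 and 284 TPM. Cycs, the mobile cytochrome c itself, was far lower on the per-length scale, at 52.9 TPM in pup 1 and at 102 TPM in pup 3. Reads given to its copies, described below, are not in these values.

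Complex IV reduces oxygen to water. Its 18 genes fell into 11 that were high in both pups and 7 tissue-restricted isoforms, of which 6 were under 1 TPM in both pups and 1, Cox6b2, in pup 3 alone. The highest were Cox6a1, at 1288 TPM in pup 1 and at 1402 TPM in pup 3 (1345 ± 80.9, SD, n = 2), and Cox4i1, whose product is the largest nuclear subunit, at 1108 and 1448 TPM (1278 ± 239.9, n = 2). Cox6b1 had 697 and 1247 TPM (972 ± 389, n = 2), Cox8a 652 and 1256 TPM (954 ± 428, n = 2) and Cox6c 619 and 1146 TPM (883 ± 373, n = 2). All 5 were higher in pup 3, and Cox6a1 was the steadiest of them. Of the 11 high genes, Cox5a alone was higher in pup 1, at 478 and 370.1 TPM, and Cox7b differed most, at 275 and 719 TPM.

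In every isoform pair the general form was the higher one in both pups. Cox4i2, the lung form, had 0 reads in both libraries. Cox4i1 was 6187-fold above a floor of 3 reads on Cox4i2 in pup 1 and 7057-fold above it in pup 3. Cox7b2 and Cox8c, testis forms, also had 0 reads in both. Cox7b was 1078-fold and 2461-fold above the floor of Cox7b2, and Cox8a 2173-fold and 3658-fold above that of Cox8c. The muscle forms had a few reads: Cox6a2 had 2 and 4, Cox7a1 had 2 and 2, and Cox8b had 2 and 0. Against these, Cox6a1 had 16135 and 15340 reads, Cox7a2 had 6818 and 13601, and Cox8a had 7712 and 12984. Floors cover counting error alone, because without molecular identifiers several reads can stem from a single molecule. The folds above a floor are therefore no lower bounds on the difference in the tissue.

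Cox6b2, a form known from testis, was the only second form with more than a few reads. It had 15.6 TPM from 188 reads in pup 1, where Cox6b1 was 44.7-fold higher. In pup 3 it had 0 reads, and Cox6b1 was 3609-fold above the floor of 3 reads. All 6 testis germ cell markers (Prm1, Prm2, Tnp1, Ldhc, Pgk2 and Odf1) had 0 reads in both libraries. Of 4 brown fat markers, Ucp1, Cidea and Adipoq had 0 reads and Fabp4 had 1 read in each library. Striated muscle markers were low. Of 10, 2 were found in both pups, against 24.7% of nuclear protein-coding genes: Myh7 (5.44 and 8.55 TPM) and Actc1 (2.39 and 1.44 TPM). Acta1 had 18.8 and 0.030 TPM. The 10 summed to 30.1 TPM in pup 1 and 11.8 TPM in pup 3.

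**Figure D2:**
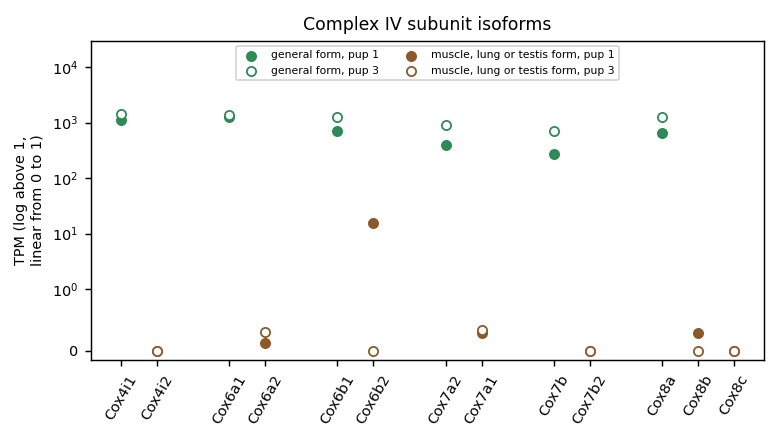
TPM of complex IV general isoforms (green) and their muscle, lung or testis forms (brown) in pup 1 (filled) and pup 3 (open), on an axis that is logarithmic above 1 and linear below. General forms lie between 275 and 1448 TPM, and of the other forms only Cox6b2 in pup 1, at 15.6 TPM, rises above 1 TPM.

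Complex V had a median of 514 TPM in pup 1 and of 781 TPM in pup 3. Atp5b, the beta subunit that makes ATP, had 997 TPM in pup 1 and 1811 TPM in pup 3 (1404 ± 575, SD, n = 2), the highest mean of all 82 genes. Atp5a1, the alpha subunit that alternates with it in equal number, had 794 and 726 TPM (759.9 ± 48.4, n = 2), so the beta transcript lay above the alpha transcript in both pups and farther above it in pup 3. The central-stalk subunits were Atp5c1, at 658 and 917 TPM (787 ± 183, n = 2), Atp5d, at 341 and 773 TPM, and Atp5e, at 494 and 1147 TPM (821 ± 462, n = 2).

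Atp5g1, Atp5g2 and Atp5g3 encode the same mature c subunit of the membrane rotor, with different import sequences. Atp5g1 had 744 and 1083 TPM (913 ± 239.8, n = 2), Atp5g3 had 514 and 925 TPM, and Atp5g2 had 177 and 185 TPM. Of their summed TPM, Atp5g1 took 51.9% in pup 1 and 49.4% in pup 3, Atp5g3 took 35.8% and 42.2%, and Atp5g2 took 12.3% and 8.44%. The order of the 3 genes was thus the same in both pups. Atp5g1 and Atp5g2 share many reads with near-identical copies, described below, so these shares are uncertain.

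The 4 peripheral-stalk genes were the part of complex V that differed least between the pups, with a median log2 ratio of 0.04. Atp5o stood at 773 and 792 TPM (783 ± 13.1, n = 2), Atp5j at 714 and 738 TPM, Atp5f1 at 654 and 894 TPM, and Atp5h at 590.0 and 457 TPM. The small membrane subunits lay at the other end. Atp5mpl had 395 and 1131 TPM, Atp5j2 had 295 and 781 TPM, Atp5l had 225 and 501 TPM and Atp5k had 353 and 615 TPM, all 4 higher in pup 3. Usmg5, the fifth gene of this list, which the symbol rule does not take, had 644 and 2036 TPM, and with it the list's median log2 ratio was 1.40. Atp5s had 1 read in pup 1 and 0 in pup 3.

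Across the members, levels leaned toward pup 3. Of 79 with any signal, 61 were higher in pup 3 and 18 in pup 1. Of 11402 nuclear protein-coding genes with signal, 4069 were higher in pup 3 and 7311 in pup 1. The median log2 ratio was 0.52 for members and -0.49 for those genes. The 2 sets were not matched in level: 3743 nuclear protein-coding genes were found in pup 1 alone and 905 in pup 3 alone. At a mean TPM of 50 or more, 59 of 73 members were higher in pup 3, against 53.4% of all 2797 such genes, with medians of 0.60 and 0.12. At 200 or more it was 53 of 65 members, against 57.1% of 736. On the other units and scalings tried, 59 to 63 of the 73 members and 52.8% to 61.3% of all genes were higher in pup 3. FPKM, the most different, moved the median of all genes from 0.12 to 0.38 and that of members from 0.60 to 0.87. Members summed to 598768 reads in pup 1 and 726848 in pup 3, although the pup 3 library was smaller. More reads in pup 3 were held by 52 of 79 members, against 31.7% of all nuclear protein-coding genes with signal. These sets too were not matched in level, and reads were not compared at a matched level. By complex the medians over members with signal were 0.55 for complex I, 0.39 for complex III, 0.39 for complex IV and 0.54 for complex V. The value for complex IV rests partly on isoforms with few reads: over its 11 genes at a mean TPM of 50 or more the median was 0.84, the highest of the 4, beside 0.57, 0.39 and 0.67 for complexes I, III and V.

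The lean was mostly within 2-fold. Over 2-fold higher in pup 3 were 17 of 73 members, against 23.4% of genes at a mean TPM of 50 or more, a share near the background. Over 2-fold higher in pup 1 were 2 of 73, Uqcrc1 and Ndufs3, against 19.7%. The SD of the log2 ratio was 0.68 for members and 2.04 for all genes at that level, and 74.0% of members lay within 2-fold, against 56.9%. At 200 TPM or more, 72.3% of 65 members and 72.4% of all genes lay within 2-fold, with SDs of 0.67 and 1.02, and 17 of 65 members were over 2-fold higher in pup 3, against 15.1%. So the larger share of members within 2-fold at 50 TPM or more was not seen at this higher level.

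**Figure D3:**
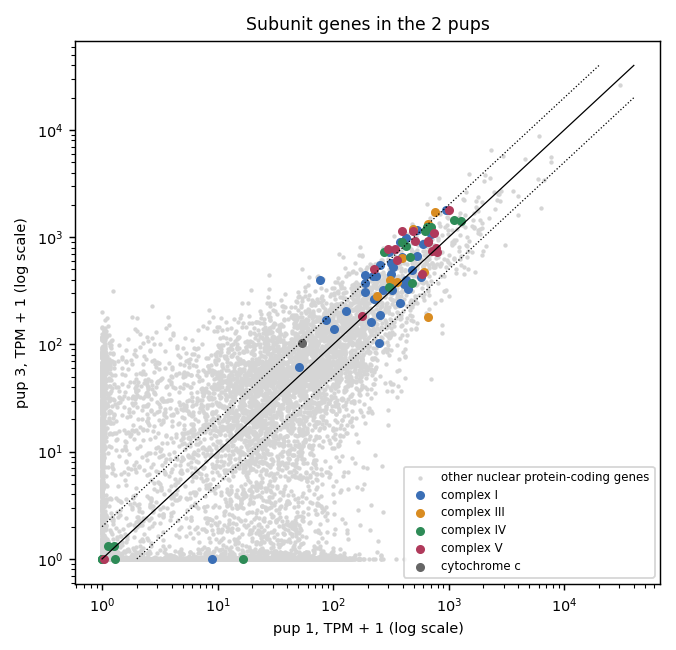
TPM + 1 in pup 3 against pup 1 on log axes for the 82 members (colours by complex) and all other nuclear protein-coding genes with signal (grey), with lines of equality (solid) and 2-fold difference (dotted). Most members sit above the line of equality at the high end, with Uqcrc1 below it at 664 and 179 TPM and Uqcr11 above it at 761 and 1733 TPM.

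Other measures also differed between the libraries. Markers of red cells summed to 1750.3 TPM in pup 1 and 3276 TPM in pup 3, with 3 of 5 higher in pup 3. Neuron markers named above summed to 10856 and 5733 TPM, with 5 of 6 higher in pup 1, and most of the difference was in Tubb3 (6275 and 1872 TPM). Their medians were 1029 and 985 TPM. The part of these, of depth and of the spike-in share in the members' lean was not tested.

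The lean was set beside transcript length. Higher in pup 3 were all 13 members under 500 bases (median log2 ratio 1.19), and 29 of 46 other nuclear protein-coding genes of that length at a mean TPM of 50 or more (0.35). From 500 to under 750 bases, 24 of 31 members were higher in pup 3 (median 0.52), against 121 of 186 others (0.31). From 750 to under 1000 bases it was 8 of 11 members (0.66) and 189 of 301 others (0.40), and from 1000 to under 1500 bases 8 of 9 members (0.39) and 361 of 620 others (0.22). From 1500 to under 2500 bases it was 4 of 7 members (0.11) and 454 of 913 others (-0.01). At 2500 bases or more both members, Ndufa11 and Cycs, were higher in pup 3 (0.95), against 280 of 658 others (-0.24). At 200 TPM or more, all 13 members under 500 bases and 22 of 29 from 500 to under 750 bases were higher in pup 3, against 71.8% of the 170 genes under 750 bases at that level, members included. Without members it was 18 of 34 under 500 bases and 69 of 94 from 500 to under 750 bases. Over the 73 members the Spearman coefficient of length with log2 ratio was -0.33, and over all 2797 genes it was -0.16, as descriptions across genes of the same libraries.

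**Figure D4:**
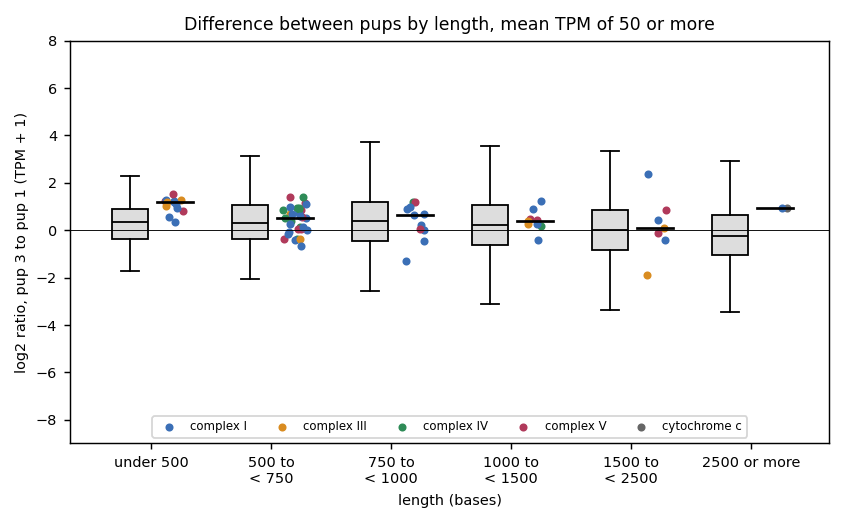
Log2 ratio of pup 3 to pup 1 (TPM + 1) by length class at a mean TPM of 50 or more: members as points coloured by complex with their median as a bar, other nuclear protein-coding genes as boxes (median and quartiles, whiskers to 1.5 times the quartile range, farther genes not drawn). Members under 500 bases have a median of 1.19, and the boxes' medians are 0.35 in that class and -0.24 at 2500 bases or more.

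Reads of some members were shared with near-identical processed copies, pseudogenes left when a messenger RNA is copied back into the genome. Aligning the members' transcripts found 67 annotated copies, at 90% identity or more over 150 bases or more, for 31 members. For 24 of these the copies held under 1% of the reads of gene and copies together, and for 6 they held over 10%. Ndufb4, a membrane-arm subunit of complex I, had 682 and 948 reads, while Ndufb4c, a copy on chromosome 15 identical over 390 bases, had 2741 and 3208, so that 80.1% and 77.2% of the reads went to the copy. With those reads added and scaled by the gene's own length, as for the other members below, Ndufb4 would stand at 252 and 265 TPM in place of 50.1 and 60.4.

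For Atp5l the copies, led by Gm10221 on chromosome 5, took 73.3% and 70.3%, and with them the gene would stand at 841 and 1688 TPM. The shares were 44.3% and 42.0% for Atp5g2, 32.3% and 32.6% for Cycs, 18.4% and 13.1% for Atp5g1, and 12.3% and 17.9% for Cox7c. The deposited counts share out reads that fit several places, so the levels of these 6 genes are uncertain. Atp5g2 would stand at 317 and 319 TPM with its copies, still the lowest of the 3 rotor genes. Cycs would stand at 78.1 and 151 TPM on its own length of 3123 bases. Its copy Gm10108, on a shorter length, had 334 and 680 TPM, so the place of Cycs beside the complex medians is not settled.

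**Figure D5:**
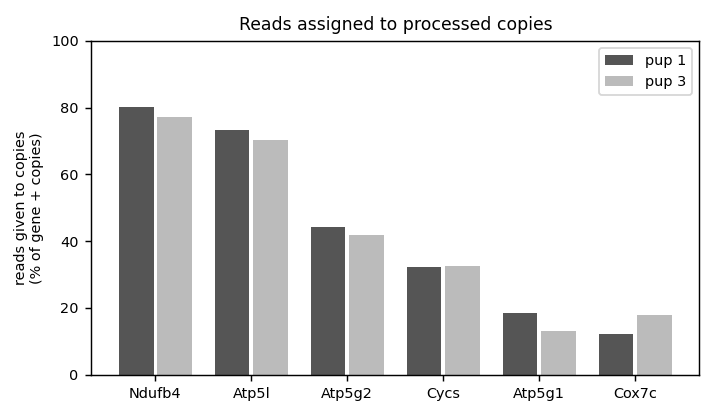
Share of reads assigned to processed copies, as a percent of the reads of the gene and its copies, in pup 1 (dark) and pup 3 (light) for the 6 members where it is over 10% in either pup. The shares run from 80.1% for Ndufb4 in pup 1 to 12.3% for Cox7c in pup 1.

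Overlap with other genes was a second source of uncertainty. Of the 82 members, 23 shared 50 or more exon bases with another gene, 15 of them with one that had over 3 reads in a pup, and most of these lay on the opposite strand. Atp5f1 shared 337 bases with Wdr77 (4905 and 1619 reads), Cox4i1 shared 154 with Emc8 (4373 and 4797 reads) and Ndufb11 shared 117 with Rbm10 (3338 and 581 reads). The members' own reads were 23140 and 27232 for Atp5f1, 18842 and 21475 for Cox4i1, and 4002 and 5712 for Ndufb11. For 2 members the other gene had more reads in pup 1 than the member: Ndufb2, with 1975 reads against 2450 of Braf, and Cox6a2, with 2 reads against 1398 of Itgad.

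At the level of transcripts, 54 of the 73 members at a mean TPM of 50 or more had 1 transcript at 10% or more of the gene's TPM, and 19 had several. Over those transcripts the median difference in share between the pups was 6.34 percentage points. The leading transcript was another one in each pup for 2 genes. Ndufs1-201 held 87.8% of Ndufs1 in pup 1 and 34.9% in pup 3, and Ndufs1-203, which is also protein-coding, held 9.59% and 48.8%. Ndufb4-202, a retained-intron transcript, held 71.0% and 38.6% of Ndufb4, on the few reads left to that gene.

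Several members had large shares in transcripts that are not annotated as protein-coding. Atp5f1-203, annotated as subject to nonsense-mediated decay, held 57.9% of Atp5f1 in pup 1 and 64.3% in pup 3. Atp5j-208, a retained-intron transcript, held 64.8% and 70.3% of Atp5j, Cox5b-205 held 55.5% and 65.7% of Cox5b, and Cox7b-203 held 54.5% and 47.9% of Cox7b. In reads, Atp5f1-203, with 12199 and 16153, and Atp5j-208, with 5239 and 5133, were also above the protein-coding Atp5f1-201 (10881 and 11008) and Atp5j-201 (2989 and 1714). The other 2 were not: Cox5b-205 had 1664 and 3285 reads against 3847 and 4928 of Cox5b-204, and Cox7b-203 had 1698 and 3410 against 2191 and 6092 of Cox7b-201. Cox5b-205 has 362 bases and Cox7b-203 has 526, shorter than those coding transcripts, and TPM is per length. Ndufs6-202, another decay transcript, held 12.2% of Ndufs6 in pup 1 and 32.3% in pup 3.

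The mitochondrial partners of these subunits had higher medians on the per-length scale, although mt-Nd4l, at 82.3 and 68.5 TPM, was below the nuclear median of its complex. All 13 mitochondrially encoded subunits were found in both pups, and their median log2 ratio was 0.26. Of them 9 were higher in pup 3, against 53.4% of nuclear protein-coding genes at a mean TPM of 50 or more. For complex I the median of the 7 mitochondrial genes was 2.97-fold the median of the 37 nuclear genes in pup 1 and 2.98-fold in pup 3. For complex IV, with 3 mitochondrial genes, it was 7.21-fold and 6.04-fold, with the 7 tissue-restricted isoforms in the nuclear median. Without members under a mean TPM of 10, that nuclear median was 687.2 in place of 428.7 TPM (mean of the pups), so these folds would be smaller. For complex V, with 2 mitochondrial genes that overlap in the mitochondrial genome, it was 17.2-fold and 16.4-fold. mt-Cytb, the one mitochondrial gene of complex III, was 11.7-fold and 10.9-fold above the nuclear median. mt-Co1, the catalytic subunit of complex IV, lay against the nuclear genes of its complex, at 5122 TPM in pup 1 and at 1806 TPM in pup 3.

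Complex II, which oxidises succinate and is wholly nuclear, had all 4 genes in both pups: Sdhb at 479 and 729 TPM, Sdhc at 210.2 and 545 TPM, Sdha at 183 and 103 TPM and Sdhd at 56.2 and 155 TPM. Ndufab1, the acyl carrier protein of complex I, which the symbol rule does not take, had 229 and 290 TPM. Atpif1, the inhibitor of the ATP synthase, had 822 and 2325 TPM. It was higher in pup 3, as were all 4 small membrane subunits.

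Assembly factors, which help to build the complexes and are no part of the finished ones, were lower and less evenly found than the subunits. The sets were not matched in level. Of 41 factors, 23 were found in both pups, against 24.7% of nuclear protein-coding genes, and 5 in neither, against 11508 of 21461. Pup 1 alone had 9 and pup 3 alone had 4 (17.4% and 4.22% of nuclear protein-coding genes). The median log2 ratio was -0.06 over the 38 factors with signal. Medians of all 41 for pup 1 and pup 3 were 36.6 and 29.3 TPM. The highest were Uqcc2 (311 and 304 TPM), Cox14 (164 and 280.5 TPM) and Coa3 (99.9 and 289 TPM). Ndufaf8, a complex I factor, was at 164 TPM in pup 1 and at 0 reads in pup 3, while Foxred1 was at 0.020 and 96.5 TPM.

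A list of 15 regulators of the nuclear subunit genes and of factors that copy, transcribe or package mitochondrial DNA had medians of 6.91 TPM in pup 1 and 0 in pup 3. In both pups 6 were found, against 24.7% of nuclear protein-coding genes, and in neither 6, against 11508 of 21461. Pup 1 alone had 3, against the 17.4% given above. The highest was Tfam, the packaging factor of mitochondrial DNA, at 63.6 and 96.8 TPM, then Gabpb1, a GABP subunit, at 56.1 and 52.9 TPM, and Nrf1 at 1.68 and 41.0 TPM. Yy1 had 7.57 and 8.08 TPM. Gabpa, the DNA-binding GABP subunit, had 2.01 estimated reads in pup 1 and 0 in pup 3. The coactivator Ppargc1a had 1 and 0, and Esrra had 0 in both, all under the floor of 3 reads. Whether the tissue expresses them cannot be told from these counts.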

How the data were processed

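RNA of 2 newborn forebrains was measured, 1 library each. The authors deposited expected counts (estimated reads, with reads that fit several places shared out), TPM, FPKM and, as a posterior mean, a further TPM whose credibility bounds stand beside it (a signal on the TPM scale, of a level not given in the sources used here), per the file headers. Assembly mm10 and annotation M4 are named in text deposited with the libraries. For aligner, counter and strand setting, nothing is stated: not given in the sources used here. The labels describe separate pups but give both the same donor identifier, so the spread may be partly technical.

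Symbols and positions came from GENCODE M21 by gene identifier (42462 of 43346 genes matched), promoters from RefSeq. The comparison of levels used deposited TPM, log2 ratios a pseudocount of 1, and a gene was found at TPM of 1 or more. The ratio step was tested on simulated data. Copies were pseudogene transcripts aligned at 90% identity over 150 bases. With 1 group and 1 library per pup no test was made. Alternatives covered unit, scaling (TMM factors of edgeR 4.0.16, size factors of DESeq2 1.42.0, both on rounded expected counts), pseudocount, filters, isoform threshold and each pup alone. R 4.3.3 and Python 3.11.15 were used, with matplotlib 3.10.9, scipy 1.17.1, numpy 2.4.6 and pandas 2.3.3.

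Members, lists and alternatives were chosen with earlier results of these data known. Named with values were the 5 highest genes of each complex, the 6 largest and 6 smallest log2 ratios at a mean TPM of 50 or more, members under 1 TPM in a pup, isoform pairs, rotor and complex I core genes, and the 3 highest of other lists. A few of these are not reported here. Other names were chosen after their values were seen. In CPM, 3 reads equal 0.0730 (pup 1) and 0.1004 (pup 3).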

Additional observations from a re-analysis of the deposited data

Results flagged for a closer look

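A signal was found in 4 processed pseudogenes that carry the members' symbols but are not annotated as protein-coding and so are outside the rule. Ndufb4c had a mean of 415 TPM, from 355 TPM in pup 1 and 476 TPM in pup 3. Cox6c2 had a mean of 14.6 TPM, from 7.37 and 21.8 TPM. Atp5l2-ps had a mean of 2.00 TPM and Ndufs6b of 1.86 TPM. There are no control samples, and each was above the limit that 3 reads allow. Atp5l2-ps was barely above it in pup 1, with 3.55 estimated reads, and had 16.59 in pup 3. How many of these reads came from the parent genes was not tested.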

How the results depend on the processing

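Of 113 recomputed values, 102 stayed within the spread or the margin set for them, 11 moved and none reversed its direction. These counts are no measure of robustness, since some outcomes were fixed beforehand. Leaving out a pup cannot move a level or share past its spread. The members' share of TPM is the same on FPKM and on rescaled TPM by construction. The margin for ratios was wider than the median ratios themselves, and only ratios could be labelled as reversed. The moves were mostly of scale. The median member was at 409.6 TPM, at 294.6 on FPKM and at 522.5 when TPM was rescaled to nuclear protein-coding genes. For complex I the median was 256.1 on FPKM and 454.6 rescaled, for complex III 342.1 and 613.4, and for complex IV 310 and 547.5, where leaving out members under a mean TPM of 10 gave 687.2. On FPKM, 54.8% of members lay within 2-fold, against 74.0% on TPM. With a transcript share of 20% as the threshold, a setting chosen after seeing the data, 11 genes had several transcripts in place of 19. No paired analysis was possible because there is 1 group. Leaving out a pup leaves no ratio, so the ratio results have no value without a replicate. For the low isoforms, the level of 3 reads bounds a count of 0 for counting error alone. Loss of molecules before sequencing is not covered by that limit and was not tested. A count of 0 in 1 library could stand beside a high count in the other, as for Ndufaf8 (2124 reads in pup 1 and 0 in pup 3).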

Other observations

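Carriers and channels that serve the ATP synthase and the outer membrane, listed with the creatine kinases Ckb and Ckmt1, lay against most subunits. All 8 listed genes were higher in pup 1 (median log2 ratio of pup 3 to pup 1 -0.35). Of all nuclear protein-coding genes at a mean TPM of 50 or more, 53.4% were higher in pup 3. That share was 49.8% from 1500 to under 2500 bases and 42.7% at 2500 bases or more. The 8 genes were not compared with genes of their own length. Ckb, the brain creatine kinase, had 1102 and 919 TPM in pup 1 and pup 3. The ADP/ATP carriers Slc25a4 and Slc25a5, which exchange the product of complex V for ADP, had 1063 and 839 TPM and 910.3 and 315 TPM. The phosphate carrier Slc25a3 had 457 and 392 TPM, and the outer membrane channels Vdac1, Vdac2 and Vdac3 lay between 210.1 and 360.0 TPM. Dmac2, a factor once named Atp5sl, had 23.4 TPM in pup 1 and 0.470 TPM in pup 3.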
